A study of Mus musculus with 2 samples.

Results

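The intercalated disc junction genes are 10 genes chosen by name: Dsp, Pkp2, Dsg2, Dsc2, Jup, Cdh2, Ctnna1, Ctnna3, Ctnnb1 and Tjp1. All 10 were found among the 55536 mouse genes of the gene tables, and the rule that names them uses no measured value, although they were named with earlier results of these data known. Their RNA was read in heart tissue of 2 B6CASTF1/J mice, first-generation hybrids of C57BL/6J and CAST mice, both male and adult. The animals were 8 to 10 months old, neither carried a labelled transgene or treatment, and the labels call them animals 2 and 4 while giving both the same donor entry. Each animal gave 1 library, made from 300 ng of RNA after ribosomal RNA was reduced, with ERCC spike-in RNA added and a kit that keeps strand. There is 1 group and no contrast between conditions, so levels, transcript choice and the spread between the animals are described, and no p-value is given, since the smallest p that flipping signs exactly over 2 libraries allows is 0.5.

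Heart muscle cells meet end to end at the intercalated disc, where desmosomes tie the membrane to desmin filaments and adherens junctions tie it to the actin of the sarcomere. In a desmosome the cadherins Dsg2 and Dsc2 reach across the gap, plakoglobin (Jup) and plakophilin 2 (Pkp2) bind their tails, and desmoplakin (Dsp) joins this plaque to desmin. In an adherens junction N-cadherin (Cdh2) binds beta-catenin (Ctnnb1) or plakoglobin, which hold the alpha-catenins (Ctnna1 and Ctnna3) that meet actin, and in heart muscle the components of both kinds intermingle in a mixed junction called the area composita. Human variants in genes of the desmosome are known causes of arrhythmogenic cardiomyopathy.

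The 10 genes together held 885 ± 27.4 TPM (a length-corrected share of all transcripts, with the same total in each library; ± is the SD over 2 libraries, n = 2, here and below). Their median was 74.3 ± 4.7 TPM, against 1.01 ± 0.04 TPM for all 22015 nuclear protein-coding genes. Every member reached at least 1 TPM in both libraries, which 48.9% of nuclear protein-coding genes did. The 4 genes of the adherens junction gave 49.4 ± 0.5% of the summed TPM, the 4 genes particular to desmosomes 35.7 ± 0.1%, Jup, which serves both, 11.1 ± 0.5% and Tjp1 3.79 ± 0.05%. By level the order ran Dsp, Ctnna1, Ctnnb1, Cdh2, Jup, Pkp2, Tjp1, Dsg2, Ctnna3 and Dsc2, from rank 226 (Dsp) to rank 4614 (Dsc2) among nuclear protein-coding genes. In that order Ctnna1 and Ctnnb1, Cdh2 and Jup, and Dsg2 and Ctnna3 were neighbours whose means lay closer together than the sum of their SDs. In whole tissue, fewer cells of a type and less RNA per cell cannot be told apart. A second table per library, made by another quantification, gave 746 ± 3.29 TPM in all and the same order except for Dsg2 and Ctnna3, which changed places. The order also depended on the transcripts counted. Over protein-coding transcripts Cdh2 (108 ± 6.7 TPM) stood above Ctnnb1 (91.1 ± 2.6 TPM), and the mean of Dsg2 (22.4 ± 5.0 TPM) above that of Tjp1 (20.1 ± 0.5 TPM). The order of Dsg2 and Tjp1 there differed between the libraries. Dsg2 and Tjp1 held 18.83 and 20.47 TPM in replicate 1, and 25.92 and 19.75 TPM in replicate 2. Over transcripts of 1000 nucleotides or more Ctnnb1 (136 ± 0.6 TPM) stood above Ctnna1 (117 ± 3.2 TPM), and Ctnna3 (19.4 ± 0.2 TPM) above Dsg2 (13.8 ± 1.5 TPM). Dsp stayed highest and Dsc2 lowest in all 4 of these versions.

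**Figure D1:**
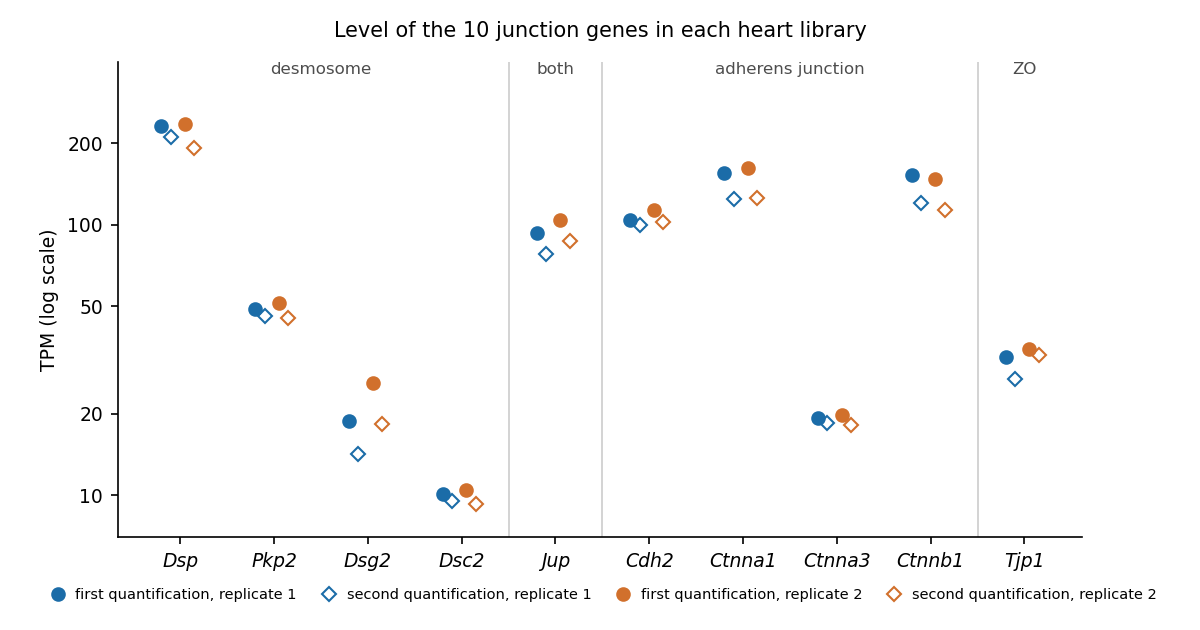
TPM of each junction gene on a log axis, by replicate (colour) and quantification (filled circles: the first; open diamonds: the second), with the genes grouped by the junction they belong to. Dsp lies above 190 TPM in every case, Dsc2 lies near 10 TPM, and the 2 libraries are farthest apart for Dsg2.

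Dsp was the most abundant member. Replicate 1 held 232 TPM and replicate 2 held 235 TPM, a mean of 234 ± 1.9, from 71753 and 68503 counts. The libraries were almost level, and the second quantification put Dsp lower, at 211 and 192 TPM. Most Dsp RNA was assigned to Dsp-201, which encodes the long form known as desmoplakin I (2883 codons), and nearly all of the rest to Dsp-202, which encodes the short form, desmoplakin II (2284 codons). Both have 24 exons and differ inside exon 23, where Dsp-202 uses an earlier splice donor and so lacks 1797 bases (chr13:38191859-38193655, mm10, plus strand). Those 599 codons lie in the coiled rod that sets how far the plaque end and the desmin end of the protein stand apart. Of the TPM on the 2 transcripts, Dsp-201 took 69.7% in replicate 1 and 69.1% in replicate 2, a mean of 69.4 ± 0.5%. In the second quantification it took 85.4% and 85.2%. The animals therefore differed by less than 1 percentage point within each quantification, while the 2 quantifications lay much farther apart. Dsp-202 has 0 exon bases of its own, so only reads across its exon 23 to exon 24 junction are particular to it, and the tables hold no junction reads. The junctions that tell the forms apart are given here from the GENCODE M21 transcripts, with the last 30 bases of exon 23 in capitals and the first 30 bases of exon 24 in lower case.
Dsp-201: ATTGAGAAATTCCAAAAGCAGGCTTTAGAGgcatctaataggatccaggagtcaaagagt
Dsp-202: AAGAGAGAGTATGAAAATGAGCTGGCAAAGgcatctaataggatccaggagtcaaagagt

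Pkp2, the plaque protein that binds both desmoplakin and plakoglobin, held 48.6 TPM in replicate 1 and 51.4 TPM in replicate 2, a mean of 49.99 ± 1.94. Pkp2-201 (13 exons, 795 codons) took 98.7% and 98.5% of it, the least divided transcript makeup of the 10 genes. The second quantification gave the same share, 98.6 ± 0.2%.

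The desmosomal cadherins were the scarce part of the desmosome, at 32.6 ± 5.2 TPM together. Dsg2 held 18.8 TPM in replicate 1 and 25.9 TPM in replicate 2. This was the widest relative gap between the animals among the 10 genes, and it was wider in TPM than in counts, which were 2687 and 3065. The difference lay mostly on Dsg2-203, a short transcript (953 nucleotides, 7 exons) that held 6.09 TPM in replicate 1 and 11.1 TPM in replicate 2, while the full-length Dsg2-201 (5766 nucleotides, 1122 codons) held 12.7 and 14.7 TPM. Of the bases of Dsg2-203, 882 also belong to Dsg2-201 and 71 do not. Counting transcripts of 1000 nucleotides or more left Dsg2 at 13.8 ± 1.5 TPM.

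Dsc2 held 10.1 TPM in replicate 1 and 10.4 TPM in replicate 2, a mean of 10.2 ± 0.2, and was the lowest of the 10 in both libraries and both quantifications. Dsg2 over Dsc2 was 0.90 in replicate 1 and 1.32 in replicate 2 on the log2 scale, a mean of 1.11 ± 0.29, so that Dsg2 was 2.18 ± 0.44 times as abundant. Dsc2 is known to make a form with a longer tail (a) and one with a shorter tail (b), which differ by an exon of 46 nucleotides that shifts the reading frame. Dsc2-201 holds that exon (848 codons) and Dsc2-202 skips it (902 codons). Transcripts with the exon took 60.5% in replicate 1 and 56.1% in replicate 2 of the TPM that either includes or skips it, and 56.1 ± 0.1% in the second quantification. The share was near that value in both tables, although the tables split it differently: Dsc2-203, annotated for nonsense-mediated decay, had 2.64 ± 3.27% of the gene in the first and 20.7 ± 4.5% in the second.

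Plakoglobin and beta-catenin are close relatives that compete for cadherin tails, and beta-catenin also carries Wnt signals. Jup held 93.3 TPM in replicate 1 and 104 TPM in replicate 2, a mean of 98.6 ± 7.5. Ctnnb1 held 152 and 148 TPM, a mean of 150 ± 3.3. Jup lay below Ctnnb1 in both libraries, by 0.71 in replicate 1 and 0.51 in replicate 2 on the log2 scale, which is a ratio of 0.658 ± 0.065. That gap moved with the transcripts counted. Over protein-coding transcripts alone Jup over Ctnnb1 was -0.35 ± 0.08 on the log2 scale, and over transcripts of 1000 nucleotides or more it was -0.90 ± 0.05.

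The transcript makeup shows where the TPM of these 2 genes sat. Jup-201 (745 codons) led Jup with 70.9 ± 2.7%, and Jup-205, a noncoding transcript of 502 nucleotides with 0 bases of its own, took 23.8 ± 3.6%. The second quantification listed Jup-205 at 0 and put 25.96 ± 2.27% on Jup-202, which encodes the same 745 codons. For Ctnnb1 the leading transcript in the first quantification was Ctnnb1-215, a retained-intron transcript made of 1 exon of 1292 nucleotides, with 35.5% in replicate 1 and 35.9% in replicate 2. It shares 1199 bases with the last exon of Ctnnb1-201, 206 of them coding, and adds 93 bases of the intron before it. In the second quantification it held 24.0 ± 1.8% and the full coding transcript Ctnnb1-201 led with 47.5 ± 2.3%, against 32.8 ± 1.2% in the first. Ctnnb1-214, which like Ctnnb1-201 encodes 781 codons, held 20.3 ± 0.3% in the first and 20.3 ± 2.1% in the second. The lead of Ctnnb1-215 in the first quantification is thus over each single transcript, not over the coding transcripts together. Coding transcripts as a class held 60.7 ± 0.4% of Ctnnb1 in the first quantification and 75.6 ± 1.9% in the second.

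Cdh2 held 104 TPM in replicate 1 and 114 TPM in replicate 2, a mean of 109 ± 6.9. N-cadherin RNA was thus 4.95 ± 0.80 times as abundant as Dsg2 RNA, with a log2 ratio of 2.46 in replicate 1 and 2.13 in replicate 2. Cdh2-202, which starts at a first exon of 112 nucleotides downstream of the usual one and encodes 849 codons, led the gene with 54.7% in replicate 1 and 53.0% in replicate 2. Cdh2-201, which encodes the full 906 codons, had 44.5% and 46.1%. The second quantification gave the same leader, at 61.0 ± 0.9%. The 112 nucleotides of that first exon are the bases on which Cdh2-202 differs from every other transcript of the gene, whereas Cdh2-201 has 930 bases of its own. Cdh2-201 also runs on past the end of Cdh2-202, so that reads of the last exon enter these shares as well as reads of the first.

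The alpha-catenins differed widely in level. Ctnna3, encoding alpha-T-catenin, which is found mainly in heart and testis and binds plakophilin 2, held 19.3 TPM in replicate 1 and 19.8 TPM in replicate 2. Ctnna1, encoding the broadly expressed alpha-E-catenin, held 155 and 162 TPM. The log2 ratio of Ctnna3 over Ctnna1 was -3.00 in replicate 1 and -3.03 in replicate 2, so that Ctnna3 stood at 0.124 ± 0.002 of Ctnna1. Among the 4 gene pairs compared here this ratio varied least between the animals. Part of the Ctnna1 value rested on Ctnna1-208, a transcript of 519 nucleotides, with 25.5 ± 0.4% in the first quantification and about 0 in the second, and over transcripts of 1000 nucleotides or more the log2 ratio was -2.59 ± 0.02. The full-length Ctnna1-201 (906 codons) led in both, with 67.5 ± 0.3% and 79.2 ± 3.0%.

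Ctnna3 is also the longest of the 10 genes (1574 kb, chr10:63430098-65003667, mm10, plus strand), and most of its RNA was assigned to a transcript with a downstream start. Ctnna3-202 and Ctnna3-203 encode the same 895 codons but begin at different first exons, at 63457510 and 63430098. Of the TPM on both, the transcript with the upstream start took 4.32% in replicate 1 and 2.22% in replicate 2, and 22.6% and 27.3% in the second quantification. The transcript with the downstream start was the larger in all 4 cases, while the size of the smaller share was not settled by these tables. Ctnna3-202 also runs on past the end of Ctnna3-203, so that reads of the last exon enter this share as well as reads of the first. RefSeq (GRCm38.p6) places starts at both, and the 250 bases before each are printed because they differ in base makeup, with every CG dinucleotide in capitals. The upstream window (chr10:63429848-63430097) holds 36 CG dinucleotides and 67.6% G and C, a count that 2.58% of all 32851 windows of this length reach. The downstream window (chr10:63457261-63457510) holds 7 CG dinucleotides and 44.8% G and C, a count that 46.3% of windows reach, and its last base is the first base of Ctnna3-202. CG reads the same on both strands, and the count describes these letters and no factor.
Ctnna3 upstream start: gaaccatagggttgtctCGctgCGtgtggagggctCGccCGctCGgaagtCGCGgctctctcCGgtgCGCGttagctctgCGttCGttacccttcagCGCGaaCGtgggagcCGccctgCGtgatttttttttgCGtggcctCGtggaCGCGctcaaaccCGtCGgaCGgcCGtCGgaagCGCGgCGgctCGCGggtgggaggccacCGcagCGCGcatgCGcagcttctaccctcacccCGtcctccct
Ctnna3 downstream start: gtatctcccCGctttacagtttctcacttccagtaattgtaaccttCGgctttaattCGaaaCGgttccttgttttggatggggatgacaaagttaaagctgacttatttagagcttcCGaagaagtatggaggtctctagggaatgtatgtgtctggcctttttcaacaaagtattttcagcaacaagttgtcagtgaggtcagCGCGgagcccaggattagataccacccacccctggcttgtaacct

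For the other members with RefSeq windows, the CG count was 22 for Dsp, 22 for Tjp1, 13 for Jup and 35 and 43 for the 2 starts of Ctnnb1. The median over all windows was 6. The upstream Ctnna3 window thus lay in the range of these 4 members, and the downstream window, at the start of Ctnna3-202, lay near the median. Another RefSeq start of Ctnna3, inside the gene, has a window with 1 CG dinucleotide.

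Tjp1 encodes zonula occludens 1, a scaffold that binds alpha-catenin and connexin 43 at the disc. It held 32.5 TPM in replicate 1 and 34.5 TPM in replicate 2, a mean of 33.5 ± 1.4. Tjp3, a relative of epithelial junctions, had 2 and 0 counts. Protein-coding transcripts held 60.1 ± 4.1% of Tjp1. Tjp1 is known to be made with or without the alpha exon, 80 codons long (chr7:65314093-65314332, mm10, minus strand). Tjp1-202 (1745 codons) includes it, and Tjp1-201 (1685 codons) and Tjp1-207 skip it. The including transcript took 69.2% in replicate 1 and 66.5% in replicate 2 of the TPM of these 3 transcripts, a mean of 67.8 ± 1.9%, and 48.2 ± 2.4% in the second quantification. Both forms were present in both animals, and which of them led depended on the quantification. Tjp1-202 and Tjp1-201 differ in the exon before the last and at both ends too, so that reads other than those of the alpha exon enter this share. The exon is shown in capitals with 20 bases of each neighbouring exon in lower case, and the junction of Tjp1-201 that skips it follows.
Tjp1-202: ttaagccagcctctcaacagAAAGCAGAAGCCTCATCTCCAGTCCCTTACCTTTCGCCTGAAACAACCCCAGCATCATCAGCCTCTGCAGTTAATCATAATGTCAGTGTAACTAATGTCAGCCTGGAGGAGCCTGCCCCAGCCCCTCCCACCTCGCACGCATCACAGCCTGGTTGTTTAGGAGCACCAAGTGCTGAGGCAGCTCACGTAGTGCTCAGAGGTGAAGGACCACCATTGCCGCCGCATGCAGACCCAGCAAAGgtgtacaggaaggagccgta
Tjp1-201: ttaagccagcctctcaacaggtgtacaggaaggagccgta

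**Figure D2:**
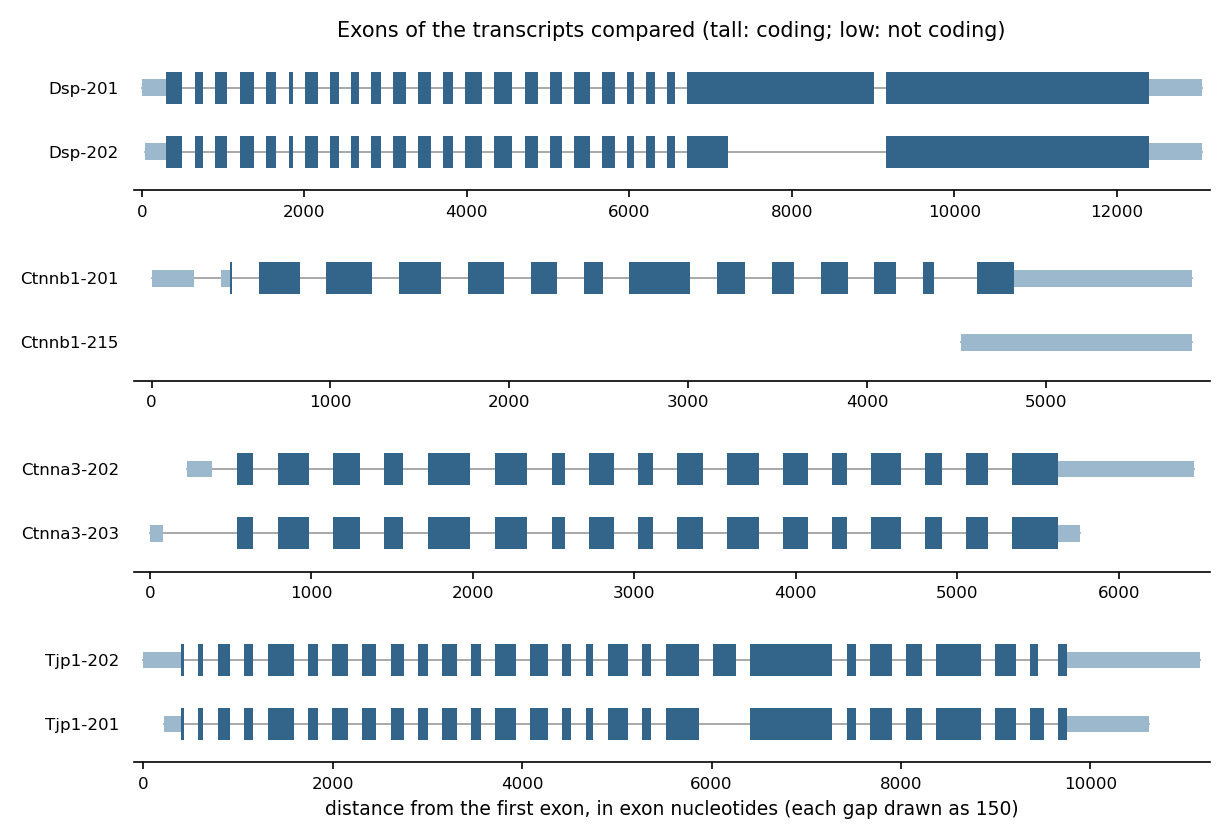
Exons of the transcript pairs of Dsp, Ctnnb1, Ctnna3 and Tjp1, read from the start of the gene on the left; tall boxes are coding, exon lengths are to scale in nucleotides and each gap between exons is drawn at a fixed width. Dsp-202 lacks the end of exon 23, Ctnnb1-215 covers only the end of the gene, Ctnna3-203 starts at another exon and ends earlier, and Tjp1-201 lacks the alpha exon.

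Across the 10 genes GENCODE lists 63 transcripts, 30 of them protein-coding, and 28 are shorter than 1000 nucleotides. For 8 members 1 transcript held more than 50% of the gene in the first quantification, and for Pkp2 and Ctnna3 it held more than 90%. The leading transcript was the same in both quantifications for 7 members. The exceptions were Dsc2, Ctnnb1 and Tjp1. Transcripts shorter than 1000 nucleotides held 37.9 ± 2.0% of Tjp1, 37.5 ± 7.3% of Dsg2, 26.4 ± 0.5% of Ctnna1 and 26.4 ± 3.2% of Jup. In the second quantification the shares of such transcripts were 35.7 ± 11.4% of Tjp1, 18.1 ± 8.5% of Dsg2, 1.43 ± 0.04% of Ctnna1 and 13.7 ± 7.5% of Jup. The tables also differ in effective length, the length over which counts are spread: for Ctnna1-208 it was 419 nucleotides in the first quantification and 271 in the second. The bearing of effective length on these shares was not tested.

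**Figure D3:**
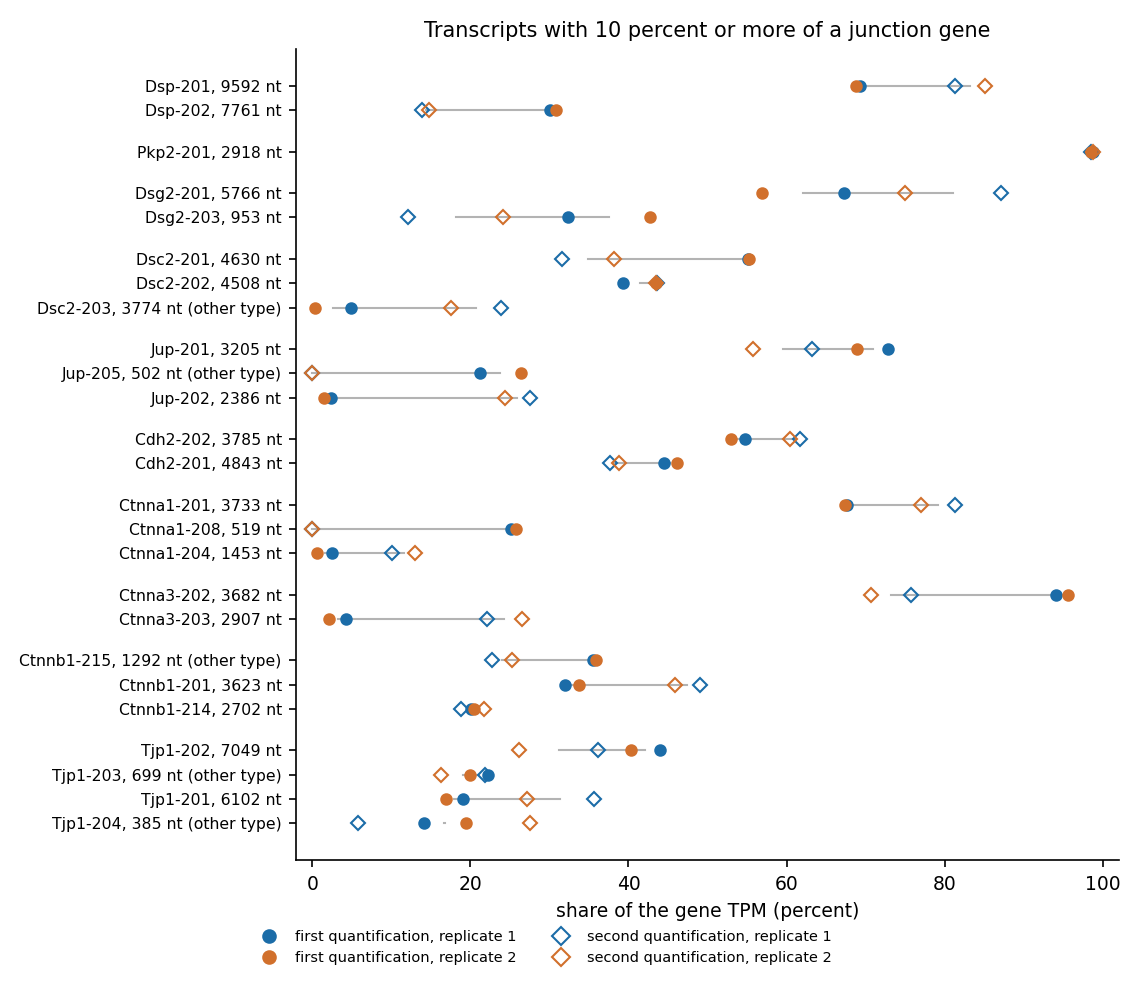
Share of the gene TPM for each transcript with 10 percent or more of a junction gene in either quantification (filled circles: the first; open diamonds: the second; colour: replicate), with its length; the grey line joins the means of the 2 quantifications. Replicates mostly lie close together, and the quantifications often lie farther apart, as for Jup-202, Jup-205, Ctnna1-208, Ctnna3-202 and Ctnna3-203.

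No member differed between the animals by the rule used: a ratio of TMM-scaled counts, replicate 1 over replicate 2, of at least 2-fold, with 200 or more summed counts and an exact Clopper-Pearson interval, with 0.1% outside it, that leaves out 1. By this rule 118 of the 10960 genes tested differed, which is 1.08%, and at 1.5-fold 0 members and 3.53% of genes did. With 10 members, 0 is near what those percentages give, so the count itself says little. The members' median absolute log2 ratio was 0.04, against 0.11 over all genes tested. These medians are not matched for counts, so they do not show that the members varied less than other genes. The genes tested start at 200 summed counts, while the member with the fewest, Dsc2, had 1552 and 1521. Among the members Dsg2 had the largest absolute log2 ratio, at -0.24 with an interval of -0.37 to -0.12. Cdh2 followed at -0.10 with an interval of -0.16 to -0.05. The intervals of the other 8 members included 0 under TMM scaling. Relative to the other genes, then, the counts of Dsg2 and Cdh2 lay lower in replicate 1 than in replicate 2, and the intervals cover counting error only, not the spread between animals. Under spike-in scaling, which moved all ratios by 0.05, Dsg2 was at -0.20 and Cdh2 at -0.06, and 4 intervals left out 0. The further 2 were those of Dsp (0.06, interval 0.04 to 0.09) and Ctnnb1 (0.09, interval 0.03 to 0.16), both higher in replicate 1. Pkp2, Dsc2, Ctnna1 and Ctnna3 changed sign under that scaling, with intervals that included 0 under both. How many of all genes tested had an interval that left out 0 was not counted. The counts of such intervals among the members are therefore not read as a trait of these genes.

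**Figure D4:**
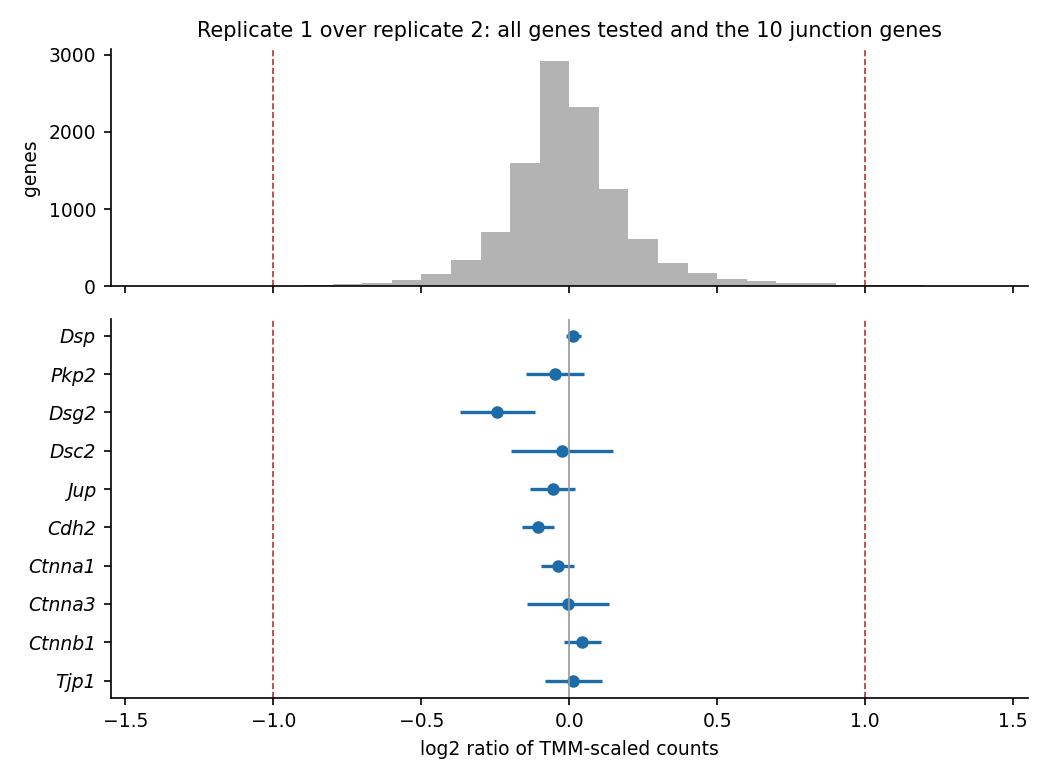
Top, the number of genes by log2 ratio of replicate 1 over replicate 2 for the 10960 genes tested, of which 52 lie outside the axis; bottom, the same ratio for each junction gene with its counting interval (0.1% outside it). Dashed lines mark a 2-fold ratio, and all 10 members lie well inside them.

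The other desmosomal genes were mostly near 0, with Pkp4 as the exception, while some other cadherins and catenins were well expressed. Of 12 other desmosomal cadherins, plakophilins and plakins, 2 reached 1 TPM in both libraries, and 7 (Dsg1b, Dsg1c, Dsg3, Dsg4, Dsc1, Dsc3 and Pkp1) had 0 counts in both, which allows up to 3 counts per library. Pkp4, an armadillo protein of adherens junctions and desmosomes, had 68.9 TPM in replicate 1 and 53.8 TPM in replicate 2, above Pkp2 in both. Ppl, Evpl and Pkp3 followed at 2.10 ± 0.14, 0.14 ± 0.04 and 0.09 ± 0.02 TPM. Among 7 other cadherins the highest were Cdh13 at 69.9 ± 3.4, Cdh5, the cadherin of endothelial junctions, at 42.3 ± 4.3, Cdh11 at 3.52 ± 0.42 and Cdh4 at 2.12 ± 0.40 TPM, all below Cdh2. A list of 6 genes held other catenins and their relatives, and Ctnnbip1, which encodes a beta-catenin binding protein and is no catenin. In it Ctnnd1, the p120 catenin that holds cadherins at the membrane, led at 18.9 ± 1.9 TPM. Ctnnbip1 followed at 8.54 ± 0.64, Ctnnal1 at 7.22 ± 1.29 and Arvcf at 7.13 ± 1.71 TPM. The neural alpha-catenin gene Ctnna2 had 1 and 2 counts.

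**Figure D5:**
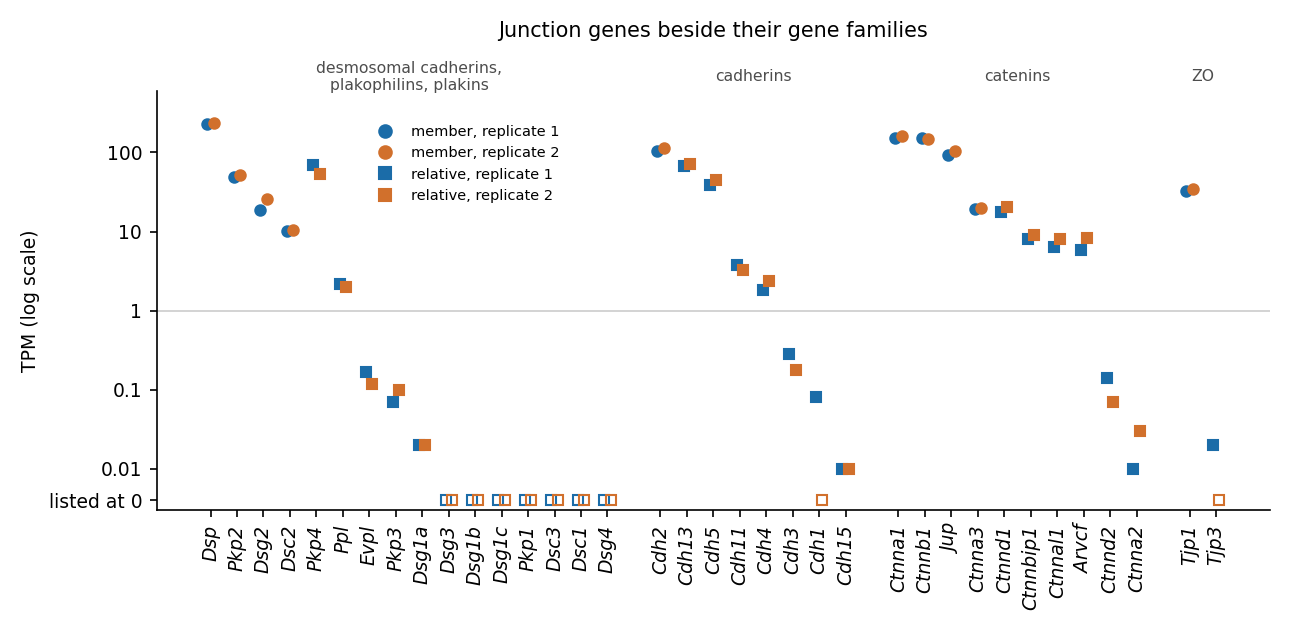
TPM on a log axis of the junction genes (circles) and of other genes of their families and Ctnnbip1 (squares), by replicate; open symbols at the bottom are genes listed at 0. Pkp4 lies above Pkp2, and Pkp4, Cdh13 and Cdh5 are the relatives above 30 TPM in both libraries.

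Lists of partner genes, some of whose products attach to these junctions or lie beside them, were also read. Of all nuclear protein-coding genes, 48.9% reached 1 TPM in both libraries. Of 12 actin-side and nectin partners 11 reached 1 TPM in both libraries, with a median of 42.6 ± 1.0 TPM, and the highest were Actn2 (alpha-actinin, 695 ± 35.4 TPM), Sorbs2 (246 ± 2.3 TPM), Nrap (186 ± 5.2 TPM) and Xirp2 (154 ± 5.2 TPM). All 6 genes of a list of connexins, a channel and ankyrins passed 1 TPM in both libraries. They were led by Gja1 (connexin 43) at 148 ± 8.5 and the ankyrin genes Ank2 at 128 ± 4.6 and Ank3 at 26.1 ± 1.0 TPM. All 10 filament and cardiomyopathy genes did so too, a list that is not limited to products at the junctions. In it Pln had 2914 ± 159, Ttn 1243 ± 105, Des, encoding the desmin that desmoplakin anchors, 454 ± 19.8 and Flnc 99.5 ± 9.5 TPM. Des stood above Dsp in both libraries, at 440 and 468 TPM. Of 10 zonula occludens and tight junction genes 5 passed 1 TPM in both libraries, near the share of all nuclear protein-coding genes. The highest of the 10 were Jam2 at 32.98 ± 1.16, Cxadr, a receptor at the disc, at 15.7 ± 2.5, F11r at 12.9 ± 0.9 and Cldn5 at 6.76 ± 2.42 TPM.

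The heart label was checked against marker genes. All 6 heart muscle markers were high, with a summed 25472 TPM in replicate 1 and 27840 TPM in replicate 2, led by Myl2, Myh6, Actc1 and Tnni3. Markers of other cell types were also read. Endothelial markers summed to 320 and 311 TPM (5 of 5 at 1 TPM or more), fibroblast markers to 180 and 192 TPM (5 of 5), mural markers to 151 and 145 TPM (4 of 4) and macrophage markers to 20.7 and 22.2 TPM (3 of 3). Ctnna1, Ctnnb1 and Tjp1 are known to be used by several of these cell types as well. Their part in the levels of the members was not tested. Epithelial and mesothelial markers, whose tissues are rich in desmosomes, summed to 12.5 TPM in replicate 1 and 6.46 TPM in replicate 2, with 2 of 8 at 1 TPM or more in both (Msln and Krt19), Krt18 and Krt8 below it in replicate 2, and Epcam at 0 counts. Schwann cell markers (0 of 3) summed to 1.64 and 1.32 TPM. Replicate 1 held 42.13 M expected counts in all and replicate 2 held 40.07 M, with 99.8% on mouse genes in each, and the lowest member, Dsc2, rested on 1552 and 1521 counts.

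The members lie on 7 chromosomes of mm10, where 4 of them, Dsc2, Dsg2, Cdh2 and Ctnna1, share chromosome 18. On the plus strand lie Dsp (ENSMUSG00000054889.10) at chr13:38151294-38198577, Pkp2 (ENSMUSG00000041957.15) at chr16:16213318-16272712, Dsg2 (ENSMUSG00000044393.15) at chr18:20558074-20604521, Ctnna1 (ENSMUSG00000037815.7) at chr18:35118859-35254779, Ctnna3 (ENSMUSG00000060843.11) at chr10:63430098-65003667 and Ctnnb1 (ENSMUSG00000006932.17) at chr9:120929216-120960507. On the minus strand lie Dsc2 (ENSMUSG00000024331.11) at chr18:20030633-20059554, Jup (ENSMUSG00000001552.14) at chr11:100368958-100397763, Cdh2 (ENSMUSG00000024304.14) at chr18:16588877-16809246 and Tjp1 (ENSMUSG00000030516.14) at chr7:65296165-65527781. The 9 desmosomal cadherin genes form a row on chromosome 18, of 644 kb (chr18:19960930-20604521) in the order Dsc3, Dsc2, Dsc1, Dsg1c, Dsg1a, Dsg1b, Dsg4, Dsg3 and Dsg2. Dsg2, at the end of that row, and Dsc2, the second gene in it, were the only ones with more than 4 counts in a library, and Dsg1a had 4 and 3 counts. In all, 13 annotated genes overlap a member, and the exons of 5 overlap its exons: Gm10129 with Dsp, Gm16090 with Dsg2, Lrrtm2 with Ctnna1, and Mir7090 and Ulk4 with Ctnnb1. These 5 had between 0 and 8 counts per library, the highest being Ulk4 with 7 and 8 counts, which is small beside the 11571 and 10812 counts of Ctnnb1. The kit keeps strand, but whether the counting used it is not given in the sources used here.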

How the data were processed

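Expected counts, TPM and FPKM per gene and transcript, with each transcript's percent share of its gene and credibility bounds on the TPM scale (a signal), were deposited by the authors in the column layout RSEM writes, per the file headers. A separate deposited transcript table per library, called the second quantification, holds estimated counts and TPM in the layout of kallisto. All use mm10 and GENCODE M21, per the deposited file listings; no source used here names the aligner or tool versions, and FPKM and the bounds were not used. Reads were assigned to the mm10 reference, and how reads of the CAST allele fared was not tested.

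Gene TPM of the second quantification was summed over transcripts. Log2 ratios of gene pairs used TPM with no pseudocount. Expected counts were rounded and scaled by TMM (edgeR 4.0.16, R 4.3.3), with 10960 genes at 200 or more summed counts. Libraries differed by a chi-square of 15.4 per degree of freedom over 17075 genes. The ratio step was tested on simulated counts. Intervals were computed from the counts of each gene alone, so they cover counting error only. The data hold no molecular identifiers. Alternatives were the second quantification, other scalings and filters, protein-coding transcripts, and transcripts of 1000 nucleotides or more. Splice and start shares use transcript TPM. Python 3.11.15 and pandas 2.3.3 were used.

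The members and gene lists were chosen with earlier results of these data known. Named genes are the 10 members, up to 4 genes of each other list by mean TPM, and genes whose exons overlap a member's; other names were chosen after their values were seen. A planned gene pair and some list genes are not reported here.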

Additional observations from a re-analysis of the deposited data

How the results depend on the processing

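The gene-pair ratios kept their sign under every alternative run. Under spike-in scaling 4 members' ratios between the animals changed sign, and 7 members rather than 3 were higher in replicate 1. In all, 0 members differed between the animals under DESeq2 size factors, spike-in scaling, no filter, the second quantification or a 1.5-fold rule. In that order the genes called were 116 of 10960 tested, 120 of 10960, 470 of 23657, 118 of 11094 and 387 of 10960. Under the main rule they were 118 of 10960. Limits: 2 libraries, counting intervals only, and transcript shares that depend on the quantification. The member median was 64.1 TPM in the second quantification, 205 when rescaled to nuclear protein-coding genes, 60.5 over protein-coding transcripts and 61.2 over transcripts of 1000 nucleotides or more (added after seeing the data), and the sum was 746, 2443, 774 and 780 TPM. On the log2 scale Ctnna3 over Ctnna1 was -2.77 in the second quantification, -2.97 over coding transcripts, -2.59 over long ones, -2.62 in counts and -2.95 with 1 TPM added. Jup over Ctnnb1 was -0.35 over coding and -0.90 over long transcripts. Dsg2 over Dsc2 was 0.78 in the second quantification and 0.43 over long transcripts, and Cdh2 over Dsg2 was 2.65 and 2.98. The cause of these shifts was not tested, other than the scale of the rescaled values. Leaving out a replicate in turn leaves the values of 1 library alone, so it cannot test robustness here. These values were 70.9 to 77.6 TPM (median), 866 to 904 TPM (sum), -3.03 to -3.00 (Ctnna3 over Ctnna1), -0.71 to -0.51 (Jup over Ctnnb1), 0.90 to 1.32 (Dsg2 over Dsc2), 2.13 to 2.46 (Cdh2 over Dsg2) and 7 to 8 members with a shared leading transcript. No paired analysis was possible because the series holds 1 group.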
